A study of Caenorhabditis elegans with 2 samples.

Results

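Long intergenic noncoding RNA genes lie between protein-coding genes and give long RNAs with no recognised protein product. The Ensembl annotation of Caenorhabditis elegans, assembly WBcel235, holds 194 of them by the biotype lincRNA, among 46890 genes on the nuclear chromosomes. All 194 were taken, and their starts were compared with a map of DNA recovered with NHR-77, a nuclear hormone receptor. The map came from chromatin immunoprecipitation with sequencing (ChIP-seq) of 2 biological replicates, which form 1 group. Both were whole L4 larvae of mixed sex from strain OP353, with the genotype unc-119(tm4063) III; wgIs353, which carries NHR-77 joined to eGFP on a transgene. No untagged strain was analysed here, so recovery through NHR-77 and recovery of accessible DNA in general cannot be told apart. RNA was not measured.

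Long intergenic RNAs are usually made by RNA polymerase II, and many are spliced and polyadenylated like messenger RNAs. Some act on chromatin or on the output of neighbouring genes, and for most no function is known. Nuclear hormone receptors are zinc-finger transcription factors, many of them regulated by small lipophilic ligands, and the family is greatly expanded in nematodes. In a compact genome a site beside a noncoding gene can also lie in the promoter of its coding neighbour, so each site was measured from both starts.

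Sequences at 10 of the sites described below were read from the RefSeq WBcel235 genome (ce11), each as 101 bases centred on the summit, 5′ to 3′ on the strand of the noncoding gene. Capitals mark matches on either strand to any of 8 short motifs. These are TGATAA and its longer form CTGATAA, the repeat GAGAGAGA, the E-box CACGTG, the GC-rich motif CCGCCC, the half-sites AGGTCA and also AGTTCA, and the run TTTTTTTT. The first pair are the strongest sites, and neither holds a match.
linc-78, chrX:2242917-2243017, plus strand: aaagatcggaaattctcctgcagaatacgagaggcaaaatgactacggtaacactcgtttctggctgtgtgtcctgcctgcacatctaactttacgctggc
linc-108, chrV:15566641-15566741, minus strand: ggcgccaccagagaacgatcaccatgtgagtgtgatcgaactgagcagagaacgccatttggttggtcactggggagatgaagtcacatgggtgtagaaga
The next 4 lie over 4000 bp from any coding start, a distance set after values had been seen. Each holds TGATAA, the core of sites bound by GATA factors such as those that specify the intestine. They are the 4 of 7 member windows (57.1%) over 2000 bp from a coding start that hold it. Those of linc-54, linc-107 and linc-143, also that far away, do not. Of all peak windows at any distance, 28.9% hold it. No share is given for all peaks over 2000 bp away, so no trait of distant sites is read from this.
linc-103, chrX:6256477-6256577, plus strand: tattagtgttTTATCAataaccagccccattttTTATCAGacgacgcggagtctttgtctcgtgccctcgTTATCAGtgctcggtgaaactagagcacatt
linc-112, chrX:3952814-3952914, plus strand: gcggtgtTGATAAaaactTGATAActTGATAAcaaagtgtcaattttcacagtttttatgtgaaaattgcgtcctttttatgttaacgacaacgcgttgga
linc-100, chrX:16775496-16775596, minus strand: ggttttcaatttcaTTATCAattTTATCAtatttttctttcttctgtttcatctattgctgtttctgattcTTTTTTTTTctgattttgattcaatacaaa
linc-142, chrX:12518642-12518742, minus strand: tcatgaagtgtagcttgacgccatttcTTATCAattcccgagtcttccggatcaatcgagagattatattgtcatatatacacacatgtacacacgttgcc
The following pair were the most alike of the windows compared.
linc-54, chrX:14506011-14506111, minus strand: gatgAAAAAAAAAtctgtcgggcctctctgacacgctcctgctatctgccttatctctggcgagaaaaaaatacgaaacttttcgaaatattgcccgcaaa
linc-34, chrX:13401436-13401536, minus strand: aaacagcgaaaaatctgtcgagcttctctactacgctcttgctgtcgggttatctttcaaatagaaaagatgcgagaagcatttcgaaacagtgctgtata
Of the last pair, linc-138 holds the longer form CTGATAA, and linc-143 holds the nuclear receptor half-site AGGTCA on the opposite strand.
linc-138, chrII:6615374-6615474, plus strand: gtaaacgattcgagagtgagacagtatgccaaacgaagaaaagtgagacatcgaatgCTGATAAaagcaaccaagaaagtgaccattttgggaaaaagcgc
linc-143, chrIII:3037490-3037590, minus strand: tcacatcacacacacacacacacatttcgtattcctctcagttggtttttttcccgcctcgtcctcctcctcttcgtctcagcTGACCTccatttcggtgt

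The authors deposited lists of 30000 regions in build ce11, background included, for each replicate and for both pooled, and a set of 3457 peaks kept by their irreproducible discovery rate (IDR). Each region has a summit and the authors' own enrichment signal. That signal has no stated scale and is read here only as a rank inside its own list, with rank 1 the strongest. Pooled signals of the 3457 peaks ran from 46.7 to 596. Read depth is unknown, and intervals cover the counting of genes or windows only.

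A peak summit lay within 500 bp of the start of 22 of the 194 long intergenic RNA genes, or 11.3% (95% Wilson interval 7.61 to 16.6). By the same rule 1918 of 19973 protein-coding genes had a peak, a background of 9.6%. That background lies inside the interval, so the share is not a result particular to the noncoding genes. Other noncoding RNA genes had a peak in 629 of 7764 cases (8.1%), antisense RNA genes in 4 of 100 and pseudogenes in 38 of 2128 (1.79%). Any region of the pooled list lay at 78 long intergenic RNA genes (40.2%, Wilson interval 33.6 to 47.2), against 35.2% of coding genes. The other 116 members, 59.8%, had no region in the window.

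**Figure D1:**
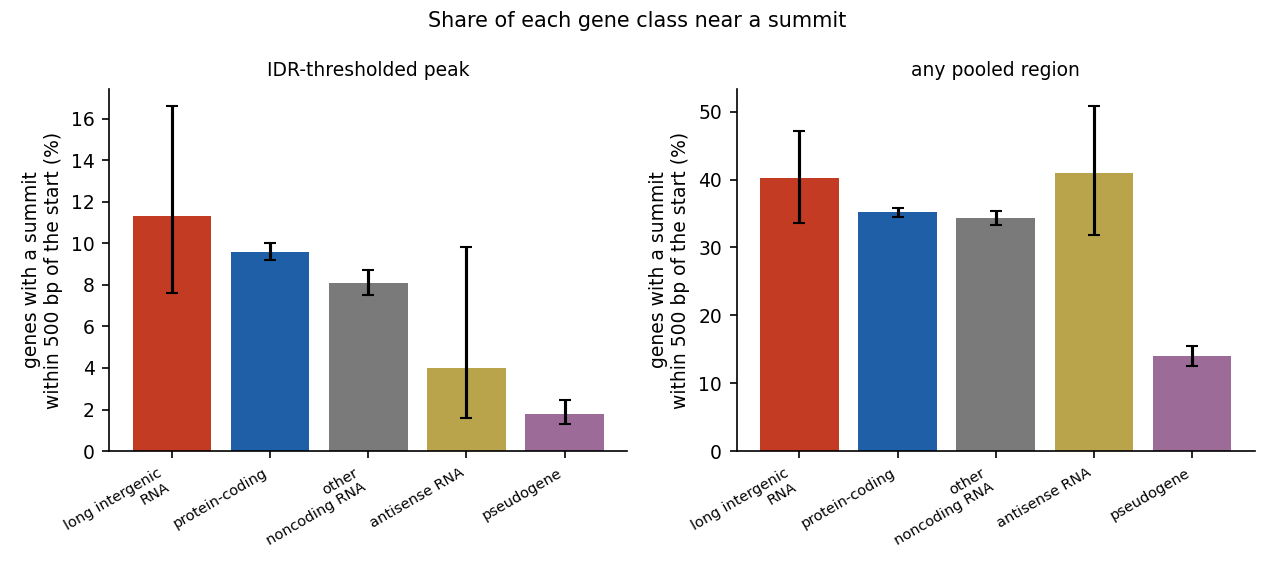
Share of genes (%) in each of 5 annotated classes with a summit within 500 bp of the gene start, for IDR-thresholded peaks and for any pooled region, with 95% Wilson intervals as error bars. The interval of the long intergenic RNA genes, 7.61 to 16.6%, holds the 9.6% of coding genes.

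The 22 genes had 22 distinct peaks, and none had more than 1 in its window. All 22 are among the 169 members with linc- names (13%, Wilson interval 8.76 to 18.9). Of the 25 members with other names, 0 had a peak, with a Wilson upper bound of 13.3%. The intervals overlap, and no difference by name is read from them. One of the 25 is lep-5, a noncoding RNA known for timing the passage from juvenile to adult. Its strongest region in the window ranked 7199 in the pooled list. Signals of the 22 peaks ran from 46.8 to 195 with a median of 68.4, next to 67.1 for all peaks. By rank, 13 of the 22 were among the 1728 strongest peaks and 3 among the first 500.

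Most summits were nearer to the noncoding start than to a coding one. Of the 22, 19 (86.4%) were closer to the start of the long intergenic RNA gene than to any protein-coding start, and 3 were closer to a coding start. Among other noncoding RNA genes with a peak, 552 of 629 (87.8%) were nearer to their own start. No coding start lay within 500 bp of 14 of the 22 summits (63.6%, against 57.2% for other noncoding RNA genes). The median distance was 205 bp to the noncoding start and 784.5 bp to the nearest coding start. The window limits the first distance and not the second, so the members' distances were bound to be short. Nearness to a start does not show which gene a site serves.

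**Figure D2:**
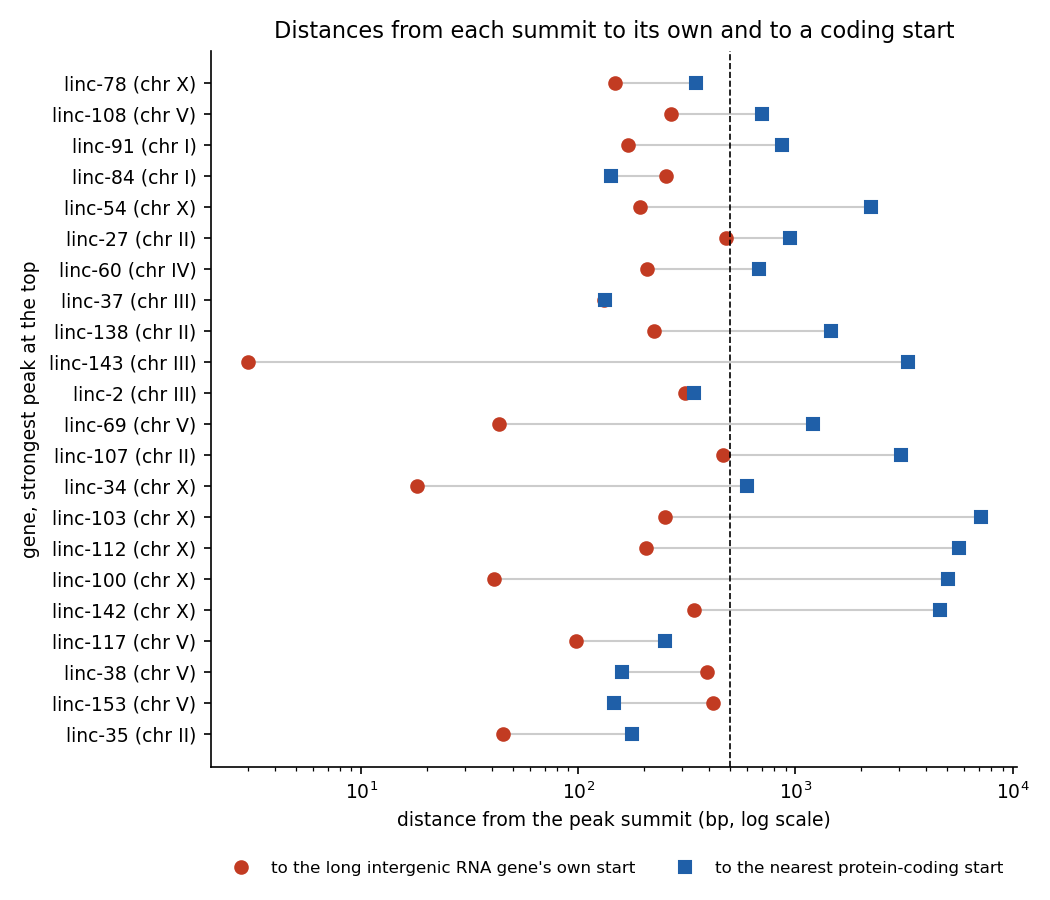
Distance (bp, log scale) from each of the 22 peak summits to the start of its long intergenic RNA gene and to the nearest protein-coding start, with the strongest peak at the top and the 500 bp window as a dashed line. In 19 of 22 genes the noncoding start is the nearer; for linc-37 the symbols nearly coincide, at 131 and 133 bp.

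The strongest sites lay between a noncoding gene and a coding gene pointing away from it. The peak of linc-78 (chromosome X, 2242880 to 2243080) had a pooled signal of 195 and rank 91, and ranked 113 in replicate 1 and 107 in replicate 2. Its summit was 148 bp upstream of linc-78, a gene of 125 bp, and 349 bp upstream of rpl-11.2, a gene for a large-subunit ribosomal protein. The noncoding RNA gene AH9.7 started at the same distance, 148 bp. The gene linc-78 itself overlapped the span of a protein-coding gene on the opposite strand. The peak of linc-108 (chromosome V, 15566571 to 15566770) had a signal of 168 and rank 143, with ranks 102 and 264 in the replicates. Its summit was 266 bp upstream of linc-108 and 703 bp upstream of acs-2, an acyl-CoA synthetase gene of fatty acid oxidation. Both sites ranked high in both replicates, and their windows are the first pair printed above.

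Of the 22 summits, 9 lay upstream of both the noncoding gene and a coding gene on the opposite strand, and 6 of those were nearer to the noncoding start. They include linc-78 and linc-108. For linc-34 (chromosome X, 13401306 to 13401665, signal 63.8, rank 1931, replicate ranks 988 and 3538) the summit was 18 bp upstream, and 597 bp upstream of F02C12.1. For linc-117 (chromosome V, 7085526 to 7085885, signal 50.1, rank 3068, replicate ranks 5272 and 2548) it was 97 bp upstream, and 250 bp upstream of VC5.2. These weaker sites each ranked past 3457 in one replicate, replicate 2 for linc-34 and replicate 1 for linc-117.

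For linc-27 (chromosome II, 6370177 to 6370536, signal 88.6, rank 902, replicate ranks 1374 and 671) the summit was 480 bp upstream, and 946 bp upstream of lin-23, the F-box gene of a ubiquitin ligase. It is the member closest to the edge of the window. The nearest members outside it were linc-125 at 502 bp (rank 1892), linc-128 at 577 bp (rank 104, signal 184) and linc-105 at 639 bp (rank 2241). A window of 1000 bp would have added 7 genes.

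The remaining coding-side sites were those of linc-38 and linc-153, with linc-84 described below. The summit of linc-38 (chromosome V, 10277565 to 10277924, signal 49.2, rank 3176, replicate ranks 3600 and 2435) was 392 bp from linc-38 and 159 bp from lys-1, a lysozyme gene. That of linc-153 (chromosome V, 11644151 to 11644510, signal 47.9, rank 3300, replicate ranks 1667 and 3734) was 415 bp from linc-153 and 146 bp from bir-1, a survivin-type gene of cell division. Both were closer to the coding neighbour, and both were weak peaks.

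Another set of summits lay upstream of a noncoding gene and a coding gene on the same strand. For linc-138 (chromosome II, 6615244 to 6615603, signal 77.4, rank 1267, replicate ranks 841 and 1948) the summit was 222 bp upstream, and 1454 bp upstream of klf-3, a Krüppel-like factor of fat metabolism. For linc-60 (chromosome IV, 14959375 to 14959734, signal 86.9, rank 946, replicate ranks 444 and 1794) it was 206 bp upstream, and 681 bp upstream of Y41E3.1. For linc-2 (chromosome III, 5024392 to 5024751, signal 68.7, rank 1644, replicate ranks 3425 and 1180) it was 309 bp upstream, and 342 bp upstream of pcf-11, a factor of transcript cleavage and termination. The site of linc-2 was thus nearly as close to the coding start.

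Summits inside or past the noncoding start numbered 7, against 15 upstream of it. The summit of linc-143 (chromosome III, 3037360 to 3037719, signal 71.3, rank 1509) was 3 bp inside the gene, the shortest distance of the 22, in an intron of daf-2, the insulin receptor gene. The nearest coding start was 3306 bp away. Its signal was 14.6 in replicate 1, rank 5298, and 58.9 in replicate 2, rank 971, so the pooled peak drew on unequal replicates. The summit of linc-37 (chromosome III, 832935 to 833294, signal 85.4, rank 989, replicate ranks 1302 and 1028) was in an intron of zip-2, a bZIP factor of the response to infection. It lay 131 bp from the start of linc-37 and 133 bp from that of zip-2, and distance cannot assign it.

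The summit of linc-142 (chromosome X, 12518512 to 12518871, signal 50.8, rank 3007, replicate ranks 786 and 3360) was 342 bp inside the gene, in an intron of scd-1, and 4637 bp from a coding start. For linc-69 (chromosome V, 8767522 to 8767881, signal 68.2, rank 1673, replicate ranks 945 and 2281) it was 43 bp inside, and 1207 bp upstream of B0507.3. For linc-35 (chromosome II, 6927600 to 6927959, signal 46.8, rank 3445, replicate ranks 6829 and 3144) it was 45 bp inside, and 177 bp upstream of F22D3.4. The peak of linc-35 was the weakest of the 22, close to the lowest signal of any peak. For linc-107 (chromosome II, 7287171 to 7287530, signal 67.6, rank 1703, replicate ranks 2657 and 1684) the summit was 462 bp downstream of the start, 66 bp past the end of this short gene, and 3075 bp from C30G12.2.

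The name intergenic did not hold for every member. Of the 194 genes, 42 overlapped the span of a protein-coding gene, 21 of them on the same strand only and 19 on the opposite strand only. A peak was at 6 of those 42 (14.3%) and at 16 of the 152 others (10.5%). Of the 22 summits, 3 lay in coding introns, 0 in coding exons and 19 between coding genes. The same shares over all peaks are not given here, so nothing particular to the members is read from these counts.

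On chromosome X a peak was at 7 of 38 members (18.4%, Wilson interval 9.22 to 33.4), and on the autosomes at 15 of 156 (9.62%, 5.91 to 15.3). These intervals overlap, and coding genes had 9.67% and 9.59%. With the 1728 strongest peaks only, the counts were 2 of 38 and 11 of 156, and the order turned. Of the 7 summits on X, 5 were over 2000 bp from any coding start, as were 2 of the 15 autosomal ones. The median distance from summit to coding start was 4637 bp on X and 681 bp on the autosomes. All members on X were also farther from coding starts, with a median of 2691 bp against 1626.5 bp, and the part of this spacing in the difference was not tested.

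The summit of linc-103 (6256347 to 6256706, signal 59.5, rank 2232, replicate ranks 1523 and 3401) was 251 bp upstream of the gene and 7121 bp upstream of W05H9.4, the longest coding distance of the 22. That of linc-112 (3952684 to 3953043, signal 58.1, rank 2345, replicate ranks 8156 and 1998) was 204 bp inside the gene and 5688 bp from lin-18, which encodes a Ryk-type receptor for Wnt. Another noncoding RNA gene, T19D2.5, started 257 bp from this summit. That of linc-100 (16775366 to 16775725, signal 51.1, rank 2971, replicate ranks 4377 and 2612) was 41 bp upstream and 5048 bp from mct-6, of the monocarboxylate transporter family. With linc-142, these are the 4 X-linked windows with TGATAA printed above, and none was among the 1728 strongest peaks.

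The summit of linc-54 (14505881 to 14506240, signal 96.5, rank 739, replicate ranks 543 and 857) was 193 bp upstream of that X-linked gene and 2237 bp upstream of M163.1. Its window resembled that of linc-34. Aligned locally, they shared 62 of 88 columns (70.5%), in the same orientation to their genes. The score was 90, where the next of 190 pairs among 20 member windows had 58 and the median pair 32.5. Of the 3456 other peaks, only the partner scored as high. The comparison was chosen after values had been seen, and no source used here gives how reads that map to similar places were treated.

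TGATAA was within 50 bp of 9 of the 22 summits (40.9%, Wilson interval 23.3 to 61.3), of 28.9% of all 3457 and of 14.1% of the 26543 pooled regions below the threshold. The share of all peaks lies inside the members' interval. The 9 peaks ranked from 989 to 3445. At least 2 copies were in 5 of 22 windows (22.7%), against 8.5% of all peak windows. This count of copies was chosen after values had been seen and was not tested. The windows of linc-103 and linc-112 held 3 copies each, as did 1.45% of all peak windows, and linc-37, linc-69 and linc-100 held 2. On X, 4 of the 7 members had the motif, against 28.8% of all X-linked peaks, a split made after values had been seen.

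CTGATAA, which always holds TGATAA, was in 2 of 22 windows (linc-103 and linc-138) and in 11.7% of all peaks. The half-site AGTTCA was in 3 (linc-60, linc-107 and linc-117; 13.6%, Wilson interval 4.75 to 33.3) and in 5.35% of all peaks. The nuclear receptor half-site AGGTCA was in 1, that of linc-143, and in 3.15%. The E-box CACGTG was in 1, that of linc-153, and in 5.55%, while GAGAGAGA was in 1 and in 4.95%. TTTTTTTT was in 2 (linc-54 and linc-100) and in 6.25%, and CCGCCC in 0, with an upper bound of 14.9%, and in 4.05%. At 50 bp on either side each of these shares of all peaks lay inside the members' interval. Within 25 bp, AGTTCA was still in 3 member windows (13.6%, 4.75 to 33.3) and in 2.69% of all peaks, which is outside that interval. Within 100 bp the 11.1% of all peaks lay inside the members' interval, 7.31 to 38.5. Pooled regions below the threshold held AGTTCA slightly more often than all peaks, 6.41% within 50 bp and 3.15% within 25 bp. It is 1 of 8 motifs, the count within 25 bp rests on 3 windows, and a match is a description, not a site. Median GC content was 41.1% at the members and 41.6% at all peaks.

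By distance to the nearest coding start, a peak was at 7 of 33 members within 500 bp (21.2%, Wilson interval 10.7 to 37.8), at 8 of 70 at 501 to 2000 bp (11.4%, 5.91 to 21) and at 7 of 91 farther away (7.69%, 3.78 to 15). The intervals overlap. Coding genes, placed by the nearest start of another coding gene, had 21.3%, 9.66% and 6.85%, each inside the members' interval. Other noncoding RNA genes had 14.2%, 7.08% and 5.4%. The median distance from the noncoding start to a coding start was 1002 bp for members with a peak and 1913 bp for those without.

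**Figure D3:**
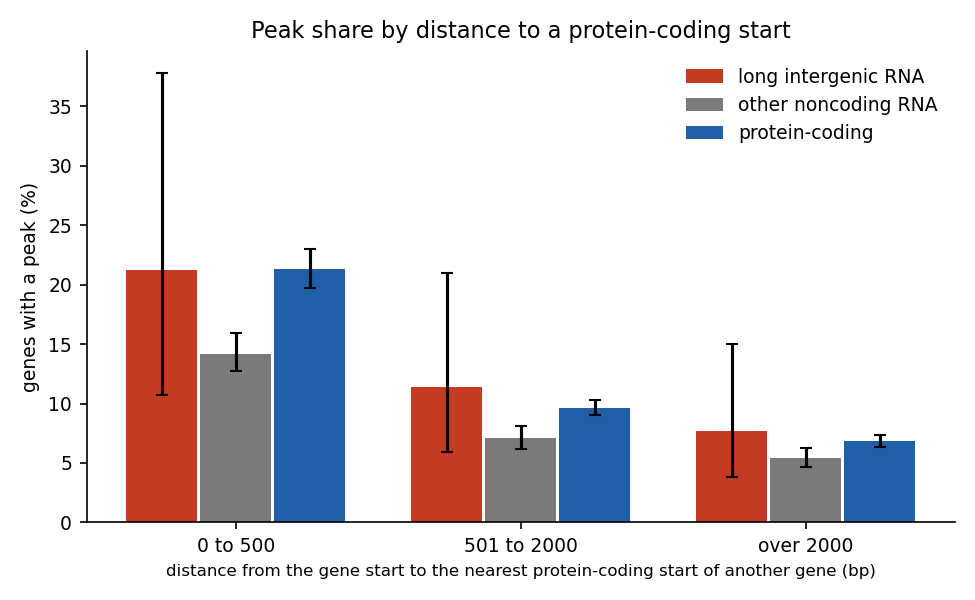
Share of genes (%) with a peak summit within 500 bp of the start, by distance from the gene start to the nearest protein-coding start, for 3 gene classes, with 95% Wilson intervals as error bars. Among long intergenic RNA genes the shares were 21.2%, 11.4% and 7.69%, with overlapping intervals.

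Around the starts, 8 peak summits fell in the 250 bp upstream of the 194 members, 4.12 per 100 genes, and 5 in the 250 bp downstream, 2.58 per 100. Coding genes had 5.51 and 0.841 per 100 in those bins, and other noncoding RNA genes 2.05 and 4.12. The next bin upstream of the members, from 500 to 250 bp, held 7 summits, 3.61 per 100, so the bin with most summits led by 1 peak. No order of the members' bins is read from counts this small.

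**Figure D4:**
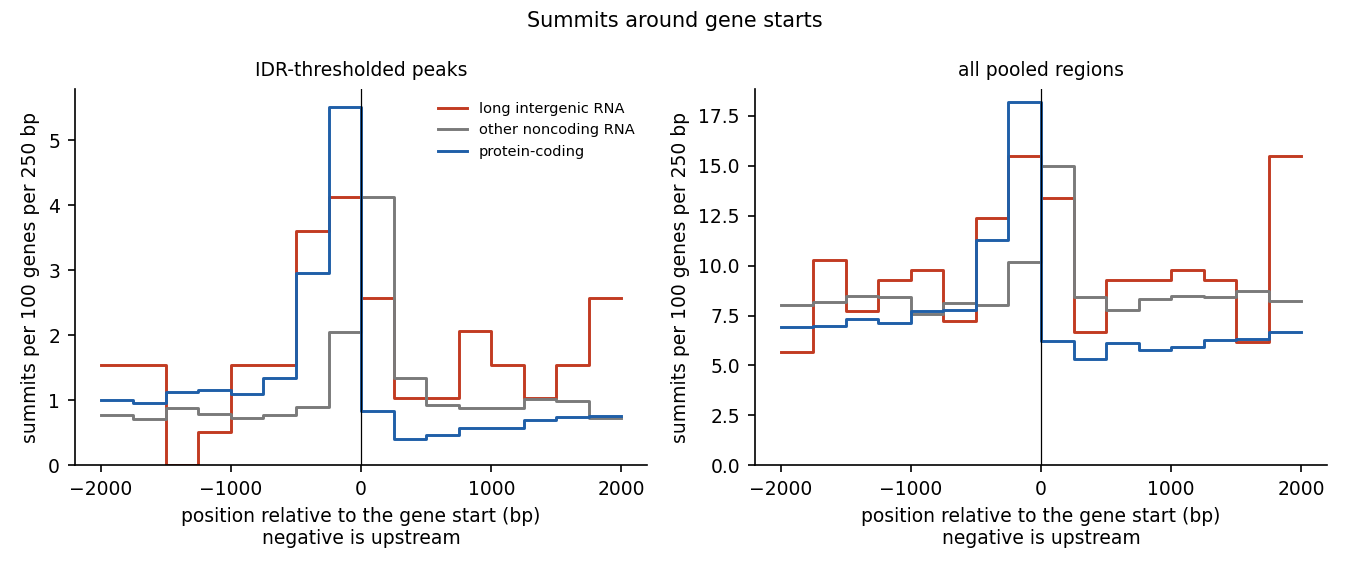
Summits per 100 genes in bins of 250 bp within 2000 bp of the gene start (negative is upstream) for 3 gene classes, for IDR-thresholded peaks and for all pooled regions. Just upstream of the start there were 4.12 peak summits per 100 long intergenic RNA genes, 5.51 per 100 coding genes and 2.05 per 100 other noncoding RNA genes.

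Of 56 members with 1 exon, 13 had a peak (23.2%, Wilson interval 14.1 to 35.8), and of 138 with more exons, 9 (6.52%, 3.47 to 11.9). The split was chosen after values had been seen and was not tested, although the intervals do not overlap. Any pooled region was at 53.6% and 34.8%. The single-exon genes were shorter, with a median length of 409 bp against 941 bp. Their median distance from a coding start was 1744 bp against 1753.5 bp, but more of them lay close to one, 16 of 56 within 500 bp against 17 of 138. Within 500 bp, 5 of those 16 and 2 of those 17 had a peak. At 501 to 2000 bp the counts were 3 of 13 and 5 of 57, and farther away 5 of 27 and 2 of 64. With the 1728 strongest peaks the counts were 10 and 3. From the strongest 3457 regions of replicate 1 alone they were 11 and 9, and of replicate 2 alone 16 and 7. Coding genes had the other order, 4.38% of 685 with 1 exon and 9.79% with more, and other noncoding RNA genes had 8.11% and 7.07%. The part of gene length and of nearness to a coding start in this difference was not tested.

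All 22 peaks overlapped regions of both replicate lists, but with unequal ranks. Of the 22 genes, 16 had one of the 3457 strongest regions of replicate 1 in the window, 20 one of replicate 2, 14 had both and 0 neither. No other member had both. The 6 peaks that ranked later than 3457 in replicate 1 were those of linc-143, linc-112, linc-100, linc-117, linc-38 and linc-35. Unequal ranks included 8156 in replicate 1 and 1998 in replicate 2 for linc-112, 5298 and 971 for linc-143, and 786 and 3360 for linc-142.

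**Figure D5:**
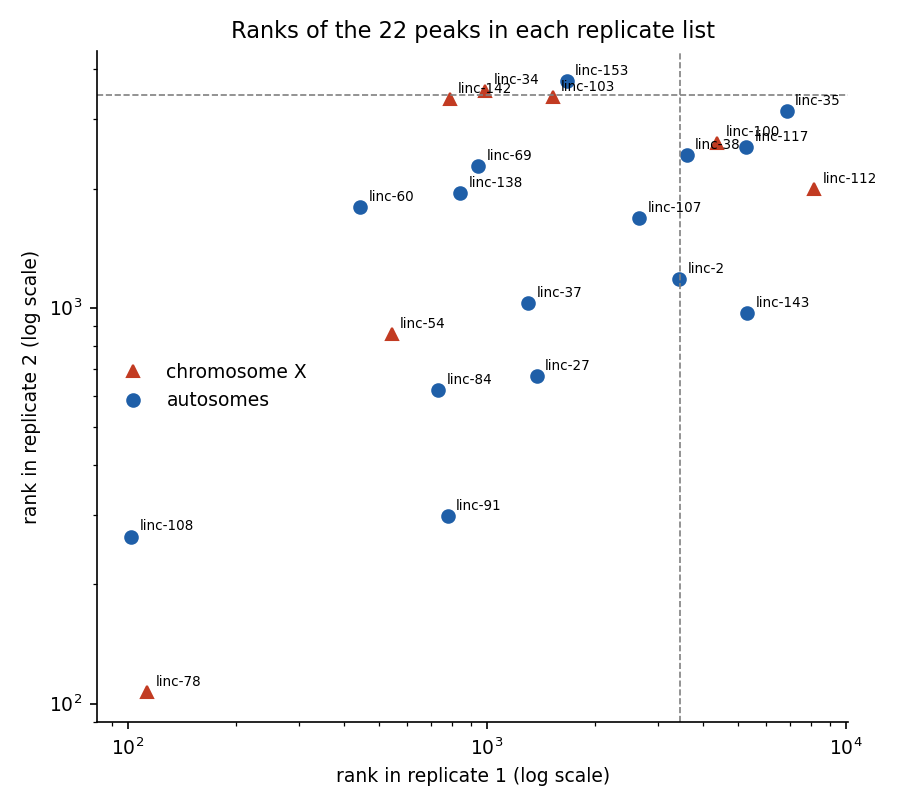
Rank of each of the 22 peaks in the list of replicate 1 and in that of replicate 2 (log scales, rank 1 the strongest), with lines at rank 3457, the number of thresholded peaks. Of the 22, 6 lie past the line in replicate 1 and 2 in replicate 2, and linc-78 and linc-108 lie nearest the origin.

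Of the 172 members without a peak, 56 had a pooled region below the threshold in the window, 17 of them with a q value under 0.05 in the authors' list. Their signals ran from 9.2 to 46.3 with a median of 16.7, and 48 of 56 were nearer to the noncoding start. The strongest was that of linc-50 (chromosome IV, 5582288 to 5582647, signal 46.3, rank 3503, replicate ranks 11687 and 2803), 206 bp upstream of linc-50 and 2216 bp upstream of fkh-7, a forkhead factor gene. Next was linc-48 (chromosome X, 17421960 to 17422319, signal 45.8, rank 3542), 253 bp inside the gene and 558 bp upstream of osm-11, a co-ligand gene of Notch signalling, with no overlapping region in replicate 1. These reached nearly the signal of the weakest peaks but rested mainly on replicate 2.

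The region of linc-72 (chromosome II, 8819532 to 8819891, signal 39.6, rank 4330) was 170 bp inside the gene and 684 bp upstream of F46C5.10, with no overlapping region in replicate 2. That of linc-119 (chromosome IV, 10235367 to 10235726, signal 39.6, rank 4337) was 8 bp inside and 218 bp upstream of ech-9, of the enoyl-CoA hydratase family. That of linc-82 (chromosome III, 3664271 to 3664630, signal 38.4, rank 4512) was 407 bp upstream of linc-82 but 147 bp upstream of C46F11.4, and so nearer to the coding start. A summit lay farther along the gene body, beyond 500 bp, in 9 members, 6 of which had no peak at the start (linc-96, linc-128, linc-119, linc-129, linc-105 and linc-90).

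The 2 sites on chromosome I are given last. The peak of linc-91 (4699261 to 4699620, signal 122, rank 374, replicate ranks 776 and 298) had its summit 169 bp upstream of linc-91 and 866 bp upstream of chd-7, a chromodomain helicase gene. It was the third strongest of the 22. That of linc-84 (8865636 to 8865772, signal 107, rank 550, replicate ranks 732 and 620) was 254 bp from linc-84 and 142 bp from F55H12.7, so it is the third site nearer to a coding start. Both lay between genes that point away from each other.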

How the data were processed

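ChIP-seq of eGFP-tagged NHR-77 gave 2 replicates. The deposited lists give a signal per region and a −log10 q value, both the authors' own, per the file layout. No source used here gives the scale of the signal, the aligner, the caller or the IDR threshold. Per the deposited file listing, both replicates had the same control, the build is ce11, and the thresholded set comes from the pooled lists. Lists in another build were not used.

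Genes came from Ensembl release 115. Summits within 500 bp of a gene start were counted with Python 3.11.15, numpy 2.4.6 and pandas 2.3.3, shares have 95% Wilson intervals (scipy 1.17.1), windows were aligned with Biopython 1.88 (match 2, mismatch -1, gap open -5, gap extend -1), and figures used matplotlib 3.10.9. The window counting was tested on simulated data, where 60 of 60 planted summits in 194 genes were recovered. All were planted inside the window, so this checks the counting code only. With 1 group no test was made. All members with a peak are named, with full values, then the 5 strongest below the threshold. The members, motifs and named lists were chosen with earlier results of these data known. Alternatives were windows of 250 and 1000 bp, the 1728 strongest peaks, each replicate alone (its 3457 strongest regions), any transcript start, any base of the peak and narrower or wider motif windows. Depth is unknown.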

Additional observations from a re-analysis of the deposited data

How the results depend on the processing

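Members with a peak numbered 22, and 13 with a window of 250 bp, 13 with the 1728 strongest peaks, 29 with 1000 bp, 25 with any base of the peak and 20 to 23 with 1 replicate left out. Of these, 19 were nearer to the noncoding start, 12 with the 1728 strongest peaks and 16 to 20 with 1 replicate left out. With 250 bp all 13 were nearer to it, and with 1000 bp 20 of 29, so this share depends on the window. Those with no coding start in the window numbered 14, 9 with the 1728 strongest peaks, and 10 with either 250 or 1000 bp. The share of coding genes was 9.6%, and 6.33% with 250 bp, 12.5% with 1000 bp, 5.15% with the 1728 strongest peaks, 10.3% with any transcript start, 10.7% with any base of the peak and 9.15 to 9.38% with 1 replicate left out. The members' share went with it, from 11.3% to 6.7% with 250 bp, 14.9% with 1000 bp, 6.7% with the 1728 strongest peaks, and 10.3 to 11.9% with 1 replicate left out. The settings of window, start and peak strength reuse the same peaks. Those of 1 replicate use its own strongest regions, from the same data. Replicate 1 alone kept 16 of the 22 members and added 4, and replicate 2 alone kept 20 and added 3. Within 25 bp of the summit GAGAGAGA, AGGTCA and TTTTTTTT were in 0% of member windows, while CTGATAA stayed in 2, CACGTG in 1 and AGTTCA in 3. For splits chosen after values had been seen, peaks at single-exon members fell from 13 to 8 with 250 bp, at members with more exons from 9 to 5 with 250 bp and to 3 with the 1728 strongest peaks, at X-linked members from 7 to 2 with the 1728 strongest and to 5 with 250 bp (13.2%), and at autosomal members from 15 to 8 with 250 bp (5.13%). No paired analysis was possible because the samples form 1 group. With 22 peaks, 2 replicates and unknown depth, differences of a few genes were not detectable.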
